A study of Mus musculus with 6 samples.

Results

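The 41 interferon-stimulated genes described here are genes that interferons switch on, chosen by name from the deposited gene tables, and all of them were found among the 55039 genes listed. All 41 also passed edgeR's filter on low counts and were among the 17296 genes tested, the lowest value being 12 reads for Mx1 in 1 library. The tissue was epididymal white adipose tissue (eWAT) from male C57BL/6 mice that carried no engineered allele in the labels or methods and were 6 to 7 weeks old at the start. In the CAC group (cancer-associated cachexia, a wasting of fat and muscle), LLC cells, a mouse lung carcinoma line, had been placed under the skin near the ilium in PBS. The CONT group received PBS alone, and both groups were killed 28 days later. Each group had 3 libraries of poly(A) RNA, 1 per mouse, so that the model is a single transplanted tumor line at a single time.

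Interferons are secreted signals that alert tissue to viruses and other microbes. Type I interferons bind the receptor IFNAR1-IFNAR2, whose kinases JAK1 and TYK2 phosphorylate STAT2 among others. STAT2 joins IRF9 in the complex ISGF3, which acts at interferon-stimulated response elements (ISREs). Interferon gamma binds IFNGR1-IFNGR2 and acts at gamma-activated sites (GAS). Many of the induced proteins block viral RNA or budding, and adipocytes, stromal cells and immune cells of fat all carry these receptors.

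To show the elements through which these genes are switched on, promoters of 300 bases (250 before and 50 after the start of a gene) were read from RefSeq on GRCm38.p6. An ISRE core was taken as GAAA, any 2 bases and GAAA again, and a GAS as TTCNNNGAA, each on either strand, and overlapping matches were allowed. An entry was found for 31 of the 41 genes. The ISRE core was present in 18 of the 31 (58.1%), beside 3.99% of 27025 genes with a promoter entry, and the GAS in 12 of the 31 (38.7%), beside 9.55%. The stretches below are shown because they carry the repeated core, in members of several families. Rsad2 is shown because it carries the core while its level was not lower in CAC. They are written 5′ to 3′ on the strand of the gene, with the ISRE core in capitals on whichever strand it was found.
Isg15, chr4:156200860-156200911, minus strand: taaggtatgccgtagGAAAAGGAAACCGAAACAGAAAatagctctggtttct
Ifit1, chr19:34640770-34640828, plus strand: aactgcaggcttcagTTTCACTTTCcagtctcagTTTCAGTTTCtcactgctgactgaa
Ifit3, chr19:34583358-34583431, plus strand: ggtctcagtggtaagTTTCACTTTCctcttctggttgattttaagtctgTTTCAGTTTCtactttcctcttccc
Oas1a, chr5:120907526-120907560, minus strand: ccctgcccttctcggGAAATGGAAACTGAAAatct
Bst2, chr8:71537572-71537617, minus strand: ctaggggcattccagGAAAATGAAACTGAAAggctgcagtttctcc
Gbp3, chr3:142559984-142560029, plus strand: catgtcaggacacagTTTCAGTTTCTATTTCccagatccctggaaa
Irgm1, chr11:48871421-48871465, minus strand: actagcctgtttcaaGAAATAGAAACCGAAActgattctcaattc
Rsad2, chr12:26456548-26456587, minus strand: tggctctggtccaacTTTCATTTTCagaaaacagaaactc

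The core was overlapped or repeated without a gap in Isg15 (3 matches), Oas1a, Bst2, Gbp3 and Irgm1 (2 matches each). Ifit1 and Ifit3 each held 2 separate cores in the same orientation, and Rsad2 held 1. The first match began 20 bases before the annotated start in Oas1a and 156 bases before it in Ifit3. A match is a description of these letters and not a site shown to be bound.

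Levels were compared as CPM (reads of a gene scaled to a common library size), with library sizes adjusted by the trimmed mean of M-values (TMM), and CAC was compared with CONT by edgeR's quasi-likelihood test over all genes. Total counts were between 15713794 and 20638492 in the CONT libraries and between 22829269 and 25926425 in the CAC libraries, so that 1 CPM stood for 11.2 reads in CONT 1 and for up to 26.5 in the others. Single CONT libraries stood apart from the rest. Mitochondrial transcripts took 30.2% of the reads in CONT 1 and 3.89% to 5.04% in the other 5. Epididymis markers summed to 9381 CPM in CONT 3, 254 in CONT 1 and 2.93 in CONT 2, with no CAC library above 0.906. Adipocyte markers were present in every library, with a sum between 33694 and 72691 CPM.

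The interferon-stimulated genes were lower on the whole in cachectic fat, with values that also differed widely among the 3 control mice. The fitted log2 fold change (CAC over CONT) was below 0 for 38 of the 41 genes, beside 54.1% of all genes tested, and its median was -0.95 beside -0.06 over all genes. With edgeR, whose values are given unless another tool is named, no member passed at an adjusted p under 0.05. No gene of the 17296 did either (0% called, smallest adjusted p = 0.127). DESeq2 and limma with voom and sample weights, compared below, called 929 (5.37%) and 953 (5.51%) genes, 4 and 0 of them members. At an unadjusted p under 0.05, 19 of the 41 were lower in CAC and 0 were higher, beside 6.95% of all genes lower and 6.31% higher. Every CAC library was below every CONT library for 15 of the 41, beside 10.7% of all genes, and no member had the opposite order (11.8% of all genes). For the 19 genes the CAC mean was 33.8% to 70.9% below the CONT mean, and their adjusted p ran from 0.275 to 0.371.

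**Figure D1:**
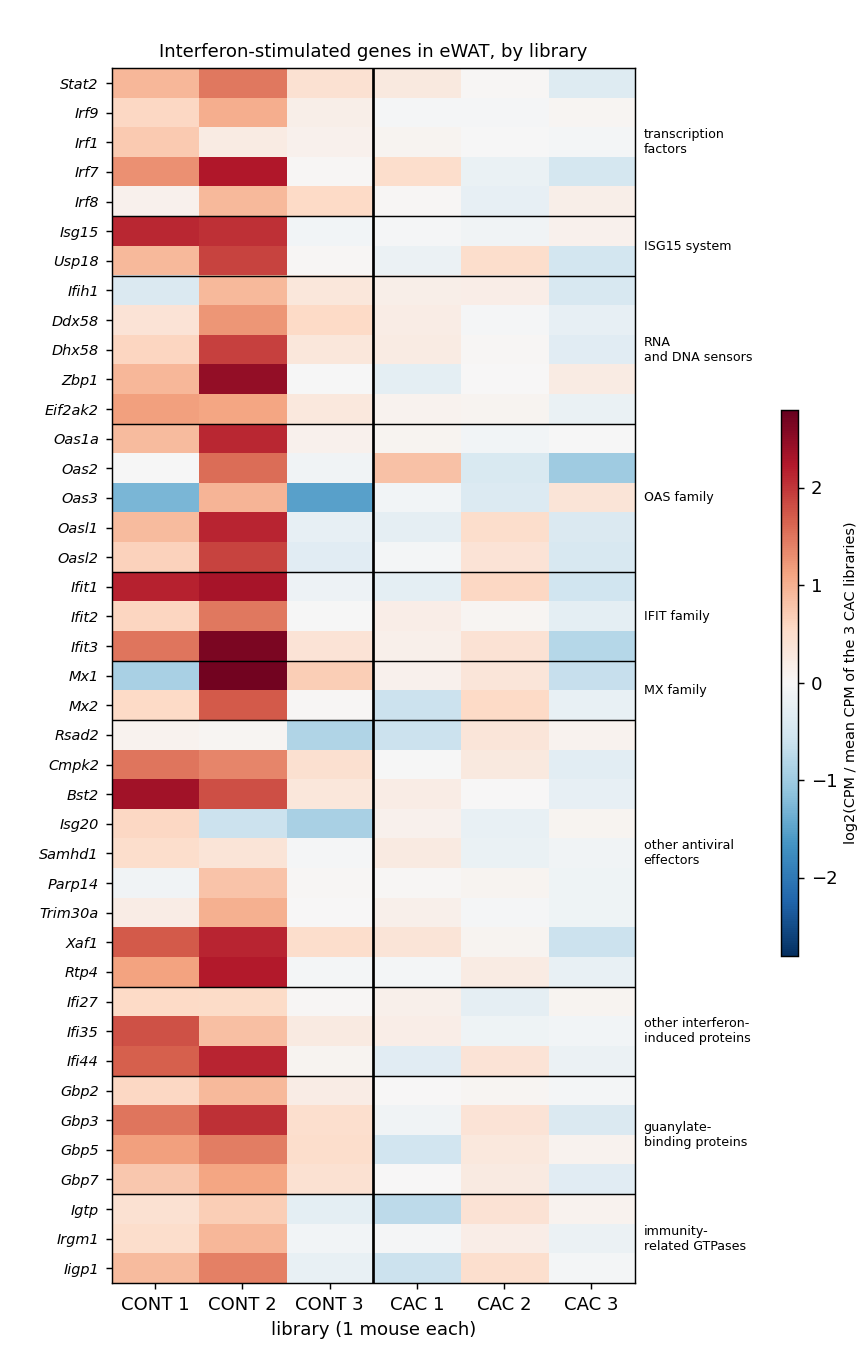
Each row is a gene grouped by role, each column a library, and the color is the log2 ratio of its CPM to the mean CPM of the 3 CAC libraries. CONT 2 held the highest of the 6 values for 31 of the 41 genes and CONT 1 for 9, while the CONT 3 column is close in color to the CAC columns.

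Per base of transcript, the genes differed in level over a wide range. Mean FPKM (reads scaled by both gene length and library size) over the 6 libraries was highest for Ifi27 (194) and Bst2 (81.6), then Isg15 (17.2), Gbp2 (16.7), Ifi35 (16.4) and Ifit3 (15.3). It was lowest for Oas3 (0.521), Mx2 (0.697), Mx1 (0.826) and Ifi44 (0.943). The 41 FPKM values summed to 793, 818 and 401 in CONT 1, 2 and 3 and to 418, 371 and 375 in CAC 1, 2 and 3. Without Ifi27 and Bst2, the sums were 350, 449 and 183 in CONT and 185, 193 and 164 in CAC. By either sum CONT 1 and CONT 2 stood above all other libraries, and CONT 3 lay beside or within the CAC libraries.

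The transcription factors of the pathway were lower in CAC by 1.31-fold to 2.73-fold in mean CPM, and 3 of the 5 had an unadjusted p under 0.05 (6.95% of all genes lower). Stat2, a subunit of the ISGF3 complex, lies at chr10:128270559-128292849. It measured 58.4, 85.0 and 41.2 CPM in CONT 1, 2 and 3 and 36.5, 31.1 and 23.6 CPM in CAC 1, 2 and 3. The groups did not overlap, with a log2 fold change of -1.02 (SE 0.31, unadjusted p = 0.0152, adjusted p = 0.287, edgeR). Irf9, which gives ISGF3 its grip on DNA, measured 47.6, 64.7 and 35.7 CPM in CONT and 31.1, 31.3 and 33.4 CPM in CAC. Its 3 CAC values lay close together and below all CONT values (log2 fold change -0.63, SE 0.24, unadjusted p = 0.0382). Irf9 (chr14:55603571-55610030) overlaps Rnf31 on the same strand, and reads of the shared stretch could belong to either gene.

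Irf7, the factor that amplifies type I interferon, was the factor with the widest spread. It measured 82.7, 160.3 and 34.9 CPM in CONT and 47.7, 30.0 and 24.2 CPM in CAC, so that CONT 3 lay below CAC 1. The log2 fold change was -1.45 (SE 0.56, unadjusted p = 0.0380). Irf7 (chr7:141262706-141266481) lies opposite Phrf1 on the other strand, and the sources used here do not say whether reads were counted by strand. Irf1, a factor that interferon gamma induces, measured 81.1, 56.9 and 52.7 CPM in CONT and 51.0, 48.0 and 46.7 CPM in CAC. The groups did not overlap, but the difference was small (-0.39, SE 0.21, unadjusted p = 0.111). Irf8, a factor of myeloid and B cells, gave -0.57 (unadjusted p = 0.0626) with overlapping groups.

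Isg15 (chr4:156199424-156200818) encodes a ubiquitin-like protein that is joined to other proteins. It measured 33.8, 32.1 and 7.46 CPM in CONT and 7.64, 7.31 and 8.53 CPM in CAC. CONT 1 and CONT 2 were far above the other libraries, and CONT 3 lay inside the narrow CAC range. The log2 fold change was -1.64 (SE 0.55, unadjusted p = 0.0218). Usp18, which removes ISG15 from proteins and damps the type I receptor, gave -1.14 (unadjusted p = 0.0721), with CONT values from 6.28 to 22.7 CPM and CAC values from 4.27 to 8.6 CPM.

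Among the sensors of foreign nucleic acid, 2 of 5 had an unadjusted p under 0.05 (6.95% of all genes lower). Eif2ak2 (PKR, chr17:78852564-78882573) halts translation on double-stranded RNA. It measured 52.1, 50.4 and 28.7 CPM in CONT and 25.1, 24.9 and 20.5 CPM in CAC, without overlap (-0.89, SE 0.27, unadjusted p = 0.0139). Ddx58 (RIG-I), a sensor of viral RNA ends, measured 31.5, 57.0 and 36.0 CPM in CONT and 28.2, 23.9 and 20.8 CPM in CAC. Every CAC value was below every CONT value (-0.77, SE 0.27, unadjusted p = 0.0272).

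Dhx58 (LGP2), a regulator of the RNA sensors, measured 10.7, 26.3 and 8.72 CPM in CONT and 8.25, 7.18 and 5.63 CPM in CAC. The groups did not overlap, with CONT 3 only slightly above CAC 1, and the unadjusted p was 0.0516 (-1.12, SE 0.47). Zbp1, a sensor of Z-form nucleic acid, gave -1.48 (unadjusted p = 0.0509), and Ifih1 (MDA5), a sensor of long double-stranded RNA, gave -0.37 (unadjusted p = 0.337), both with overlapping groups.

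The OAS genes, whose active members make the messenger that switches on RNase L, were far higher in CONT 2 than in CONT 3. CONT 2 was the highest of the 6 libraries for all 5 and 3.17 to 5.55 times as high as CONT 3. Oas1a (chr5:120896256-120907521) measured 9.01, 21 and 5.29 CPM in CONT and 5.13, 4.56 and 4.83 CPM in CAC. The groups did not overlap, but CONT 3 was only just above CAC 1 (-1.28, SE 0.53, unadjusted p = 0.0472). Oas1a shares 57.6% of its 50-base windows with Oas1g or Oas1b, so its count is uncertain.

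Oasl2, the most abundant of the family per base, measured 36.0, 85.3 and 18.6 CPM in CONT and 22.4, 30.1 and 17.0 CPM in CAC. CONT 3 lay among the CAC values (-1.01, SE 0.55, unadjusted p = 0.112). Oasl1 gave -1.24 (unadjusted p = 0.103) and Oas2 -0.71 (unadjusted p = 0.305). Oas3 was 1 of 3 members with a value above 0, beside Rsad2 and Isg20, and each of these turned below 0 when single libraries were left out (Oas3 0.15, SE 0.72, unadjusted p = 0.843), at 1.67 to 9.29 CPM in CONT and 3.67 to 6.15 CPM in CAC.

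The IFIT proteins bind viral RNA and block its translation. Ifit3 (chr19:34583531-34588731) measured 42.0, 92.2 and 19.5 CPM in CONT and 16.4, 19.8 and 8.53 CPM in CAC. Ifit1 (chr19:34640871-34650009) measured 33.4, 37.0 and 6.83 CPM in CONT and 6.20, 11.2 and 5.14 CPM in CAC. In both, CONT 1 and CONT 2 were above every CAC library and CONT 3 was below CAC 2.

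The log2 fold change was -1.78 for Ifit3 (SE 0.60, unadjusted p = 0.0227) and -1.78 for Ifit1 (SE 0.65, unadjusted p = 0.0316), the lowest values among the 41. Ifit3 shares 51.2% of its 50-base windows with Ifit3b, its near copy. Ifit2 gave -0.83 (unadjusted p = 0.0775). Of the MX GTPases, which trap viral nucleoproteins, Mx1 measured 1.07, 13.1 and 3.21 CPM in CONT and 2.18, 2.54 and 1.28 CPM in CAC. CONT 1 was the lowest and CONT 2 the highest of the 6 libraries (-1.53, SE 0.89, unadjusted p = 0.131). Mx2, which the deposited annotation labels a polymorphic pseudogene, gave -0.95 (unadjusted p = 0.158).

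**Figure D2:**
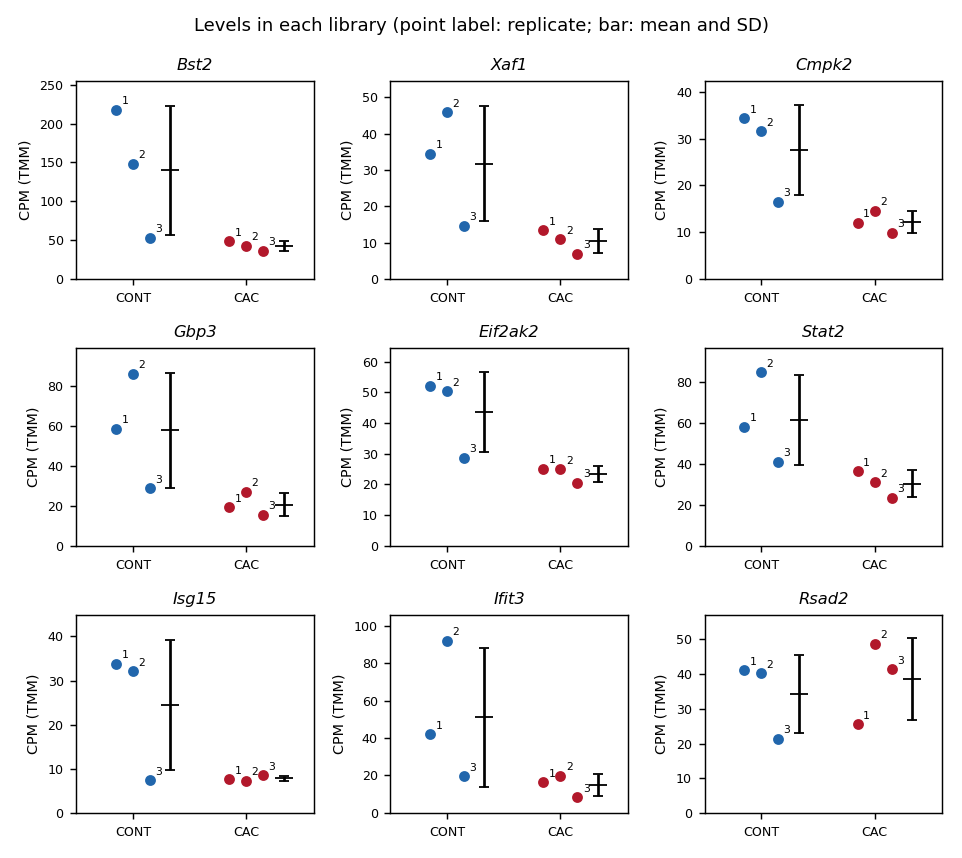
Points are the CPM of 9 genes in each library, numbered by replicate, with the mean and SD (n = 3) beside each group. In the first 6 panels all CONT points lie above all CAC points, whereas CONT 3 lies among the CAC points for Isg15 and below CAC 2 for Ifit3, and the groups of Rsad2 overlap.

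Of the other antiviral effectors, 4 of 9 had an unadjusted p under 0.05 (6.95% of all genes lower), and these included the member with the second highest level per base. Bst2 (tetherin, chr8:71534255-71537456), which holds budding virions on the cell surface, measured 218, 148 and 53.1 CPM in CONT and 48.9, 42.7 and 36.2 CPM in CAC. All CAC values were below all CONT values, although CONT 3 was nearer to CAC 1 than to the other CONT libraries. The CONT mean was 3.28 times the CAC mean (-1.71, SE 0.49, unadjusted p = 0.0111, adjusted p = 0.275).

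Xaf1, a partner of the apoptosis inhibitor XIAP, measured 34.5, 45.9 and 14.7 CPM in CONT and 13.5, 10.9 and 6.91 CPM in CAC (-1.60, SE 0.47, unadjusted p = 0.0121). Its groups did not overlap. Rtp4, a receptor chaperone that interferon induces, measured 29.7, 63.1 and 13.2 CPM in CONT and 13.1, 15.8 and 11.8 CPM in CAC (-1.38, SE 0.54, unadjusted p = 0.0395). CONT 3 lay within the CAC range, and Rtp4 lies across Masp1 on the other strand and Gm45338 on its own, which makes its count uncertain.

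Cmpk2 and Rsad2 are neighbors on chromosome 12, 12751 bases apart and on opposite strands, and in the antiviral pathway CMPK2 makes the nucleotide that viperin, the product of Rsad2, turns into a chain terminator. Cmpk2 measured 34.4, 31.5 and 16.5 CPM in CONT and 12.0, 14.6 and 9.85 CPM in CAC. Its groups did not overlap, and it had the smallest unadjusted p of the 41 (-1.18, SE 0.33, unadjusted p = 0.0107, adjusted p = 0.275). Rsad2 measured 41.1, 40.3 and 21.4 CPM in CONT and 25.5, 48.8 and 41.4 CPM in CAC.

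The Rsad2 groups overlapped (0.17, SE 0.35, unadjusted p = 0.636). The FPKM of Rsad2 was 1.15, 1.23 and 1.24 times that of Cmpk2 in CONT 1, 2 and 3 and 2.05, 3.20 and 4.04 times in CAC 1, 2 and 3. These ratios were chosen for display after their values had been seen and were not tested. In the 3 controls the ratio varied little even though each gene's level varied among them.

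The exonuclease gene Isg20 gave 0.16 (unadjusted p = 0.696), with CONT 1 at 45.6 CPM, the other CONT libraries at 20.1 and 16.2 CPM, and the CAC libraries between 26.4 and 32.9 CPM. Samhd1, which depletes nucleotides, gave -0.29 (unadjusted p = 0.238). Parp14, an ADP-ribosyltransferase, gave -0.30 (unadjusted p = 0.305), and Trim30a, an E3 ligase of the tripartite motif family, gave -0.47 (unadjusted p = 0.164). The groups of these 4 genes overlapped.

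Of the remaining interferon-induced proteins, Ifi27, a small mitochondrial protein and the most abundant member, measured 447, 438 and 312 CPM in CONT and 336, 254 and 322 CPM in CAC (-0.39, SE 0.25, unadjusted p = 0.164). CONT 3 lay inside the CAC range. Ifi35 (chr11:101448407-101458698), a leucine zipper protein, measured 76.5, 40.2 and 26.7 CPM in CONT and 25.5, 20.4 and 21.1 CPM in CAC. It was 1 of the 9 members highest in CONT 1, its groups did not overlap, and the log2 fold change was -1.10 (SE 0.39, unadjusted p = 0.0276). Ifi44 measured 11.8, 16.2 and 3.89 CPM in CONT and 2.96, 4.84 and 3.32 CPM in CAC, with CONT 3 below CAC 2 (-1.52, SE 0.56, unadjusted p = 0.0322).

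The guanylate-binding proteins, GTPases that attack vacuoles of intracellular microbes and answer strongly to interferon gamma, were lower in CAC in all 4 members, each without overlap (10.7% of all genes) and each with an unadjusted p under 0.05 (6.95% of all genes). Of the 4, only Gbp3 stayed under that threshold in the edgeR fit without CONT 2 (5.3% of all genes lower). The 4 genes lie in 1 cluster on chromosome 3, from Gbp5 at chr3:142493978-142522344 to Gbp2 at chr3:142620602-142638008. Gbp3 measured 58.7, 86.2 and 28.8 CPM in CONT and 19.4, 27.2 and 15.6 CPM in CAC (-1.48, SE 0.43, unadjusted p = 0.0115). Gbp5, which aids inflammasome activation, measured 29.8, 35.9 and 18.8 CPM in CONT and 9.28, 16.5 and 14.3 CPM in CAC (-1.07, SE 0.33, unadjusted p = 0.0162). In both genes CONT 3 was the lowest control and stood just above CAC 2.

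Gbp7 measured 53.0, 68.3 and 42.0 CPM in CONT and 31.7, 37.7 and 25.2 CPM in CAC (-0.79, SE 0.25, unadjusted p = 0.0176). Gbp2 measured 62.0, 78.1 and 47.7 CPM in CONT and 41.8, 42.8 and 39.6 CPM in CAC (-0.60, SE 0.22, unadjusted p = 0.0299). The CONT 2 to CONT 3 ratio had a median of 1.78 over the 4 genes, beside 4.59 over the OAS genes and 4.73 over the IFIT genes. Gbp7 shares 12.7% of its 50-base windows with Gbp3, Gbp9 or Gm43802.

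The immunity-related GTPases, which also act on the vacuoles of microbes, had no member with an unadjusted p under 0.05. Iigp1, the highest of them per base, measured 63.4, 91.7 and 29.9 CPM in CONT and 22.7, 47.5 and 33.3 CPM in CAC. CONT 3 lay among the CAC values (-0.84, SE 0.45, unadjusted p = 0.110). Irgm1 gave -0.50 (unadjusted p = 0.120) and Igtp -0.34 (unadjusted p = 0.395), and Igtp overlaps Irgm2 on the same strand.

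**Figure D3:**
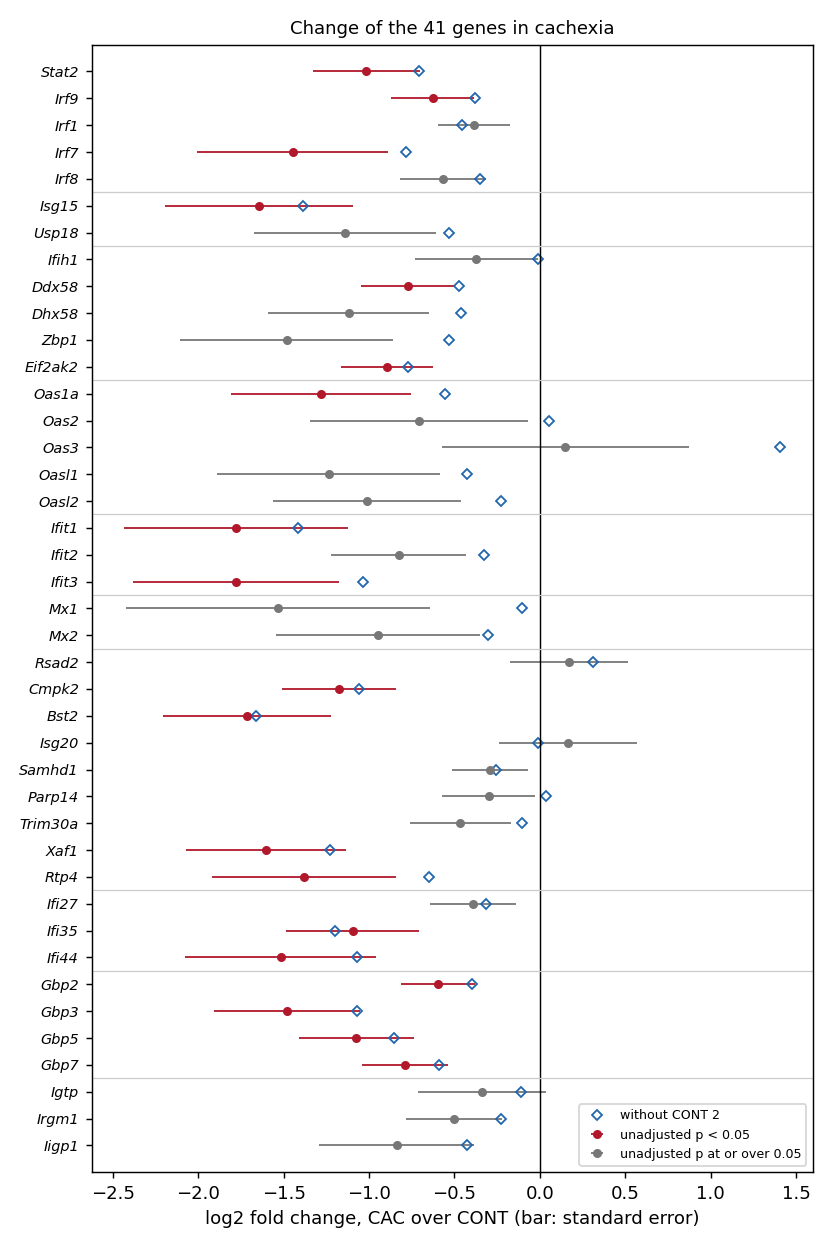
Filled points are the log2 fold change (CAC over CONT) of each gene with its standard error, red where the unadjusted p was under 0.05 (edgeR, 3 libraries per group), and open diamonds are the values when CONT 2 was left out. All 19 red points lie below 0, and most diamonds lie closer to 0 than their points.

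How far each comparison rested on single control mice was followed library by library. Relative to the CAC mean, the median member stood at 1.67-fold in CONT 1, 2.68-fold in CONT 2 and 1.03-fold in CONT 3, where the median of all genes was 0.938, 1.03 and 0.985. CONT 2 was above every CAC library for 39 of the 41 (95.1%, beside 31.8% of all genes), and CONT 1 and CONT 2 were both above every CAC library for 32 (78.0%, beside 14.6%). CONT 3 was above every CAC library for 18 members, inside the CAC range for 20 (48.8%, beside 43.6% of all genes) and below it for 3.

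CONT 2 held the highest of the 6 values for 31 of the 41 genes (16.5% of all genes) and CONT 1 for 9 (27% of all genes). The remaining gene, Rsad2, was highest in CAC 2. The lowest value was in CAC 3 for 24 of the 41 (20.4% of all genes). The SD of log2 CPM had a median of 0.785 in CONT and 0.282 in CAC over the members, beside 0.448 and 0.326 over all genes, and was larger in CONT for 40 of the 41 (97.6%, beside 60.9%). The control mice thus covered a wider range of interferon-stimulated transcript levels than the tumor-bearing mice did.

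Gene length moved with the level of CONT 1 relative to CONT 3. Among the 7 members with a gene length under 2000 bases the CONT 1 to CONT 3 ratio had a median of 2.82, beside 1.54 among the 34 longer members, and over all genes these medians were 1.39 and 0.874. The CONT 2 to CONT 3 ratio had a median of 2.79 in the shorter and 2.44 in the longer members, and 1.03 and 0.991 over all genes. The 7 short members included Bst2, Isg15 and Ifi35, and CONT 1 was the highest library for 5 of the 7, beside 45.2% of all genes under that length. It was the highest for 4 of the 34 longer members, beside 23.2% of all longer genes. The part of length and of the mitochondrial share in the values of CONT 1 was not tested.

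Leaving out CONT 2 reduced the number of members lower at an unadjusted p under 0.05 from 19 to 6 (Bst2, Gbp3, Ifi35, Eif2ak2, Cmpk2 and Xaf1, beside 5.3% of all genes) and moved the median log2 fold change from -0.95 to -0.46. In that fit Oas3 was higher in CAC at an unadjusted p under 0.05, with a log2 fold change of 1.40. The members lower at that threshold numbered 12 without CONT 1 (8.28% of all genes), 27 without CONT 3 (4.25%), 8 without CAC 1 (5.37%), 10 without CAC 2 (3.69%) and 7 without CAC 3 (4.47%). Without CONT 1 and without CONT 2, 1 member each was higher (7.3% and 4% of all genes), and without CONT 3 and each CAC library 0 were (5%, 6.31%, 3.55% and 3.84%). Bst2, Cmpk2, Eif2ak2, Gbp3 and Xaf1 kept an unadjusted p under 0.05 in all 6 of these fits, and the other 14 lost it in at least 1. The 15 members without overlap became 32 when CONT 3 was left out, beside 14.6% of all genes, and were 15 when CONT 2 was, beside 13.6%, both at fixed levels, where leaving out a library cannot lower this number.

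DESeq2, the tool of the study, called 4 members lower at an adjusted p under 0.05 with all 6 libraries, beside 2.55% of the 16019 genes to which it gave an adjusted p. Its other shares are likewise over the genes with an adjusted p in that fit. The 4 members were Bst2 (adjusted p = 0.0229), Xaf1 (0.0323), Gbp3 (0.0327) and Cmpk2 (0.0466). DESeq2 called 0 members lower without CONT 2 or CAC 3 (1.28% and 1.43% of those genes), 1 each without CAC 1 or CAC 2 (4.17% and 1.88%), 8 without CONT 1 (7.16%) and 19 without CONT 3 (1.68%). Without CONT 1, DESeq2 also called Isg20 higher, beside 8.17%. At an adjusted p under 0.05, limma called 0 members with voom and sample weights (5.51% of the 17296 genes tested) and 0 on the FPKM at a pseudocount of 1 or 0.1 (0.0334% and 0.0401%).

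**Figure D4:**
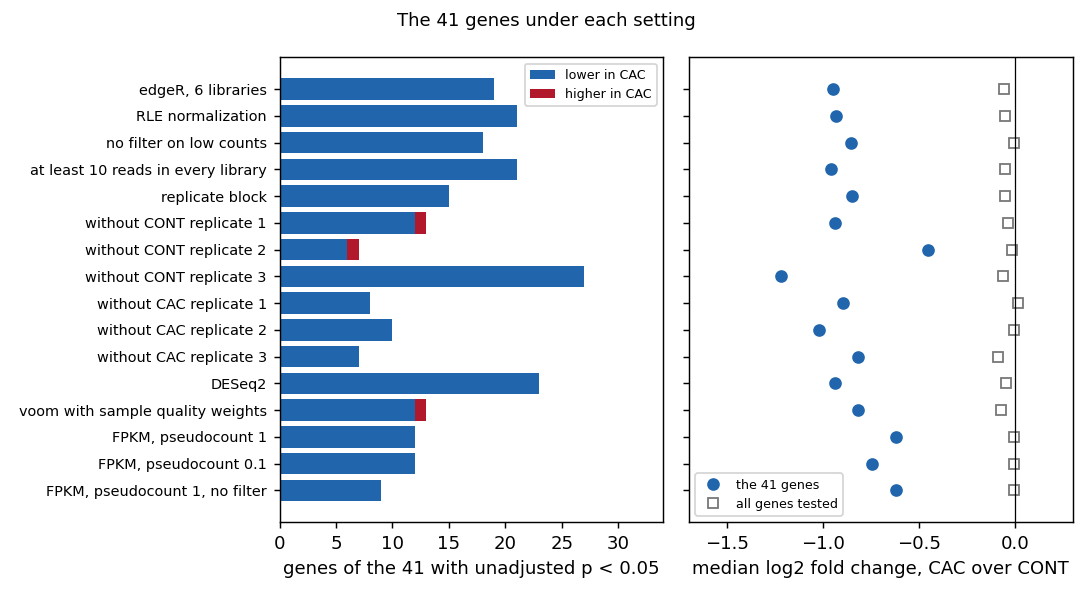
Bars count the members with an unadjusted p under 0.05 under each setting, and points give the median log2 fold change (CAC over CONT) of the 41 genes and of all genes tested. The median of the 41 lies below that of all genes under each of the 16 settings drawn, and the count ranges from 7 to 27 across the fits with 1 library left out.

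The genes upstream of these targets were read from lists of the pathway. Of 21 interferon ligand genes, 17 had 0 reads in all libraries, and the other 4 (Ifne, Ifnk, Ifnz and Ifng) had 21 reads in total with at most 4 in any library. Ifng, the type II ligand, had 2, 4 and 3 reads in CONT and 1, 0 and 0 reads in CAC. A count of 0 allows up to 3 reads, or 0.113 to 0.268 CPM depending on the library, so ligand transcripts were not measurable at this depth.

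Of 10 receptors and kinases, 1 was higher and 2 were lower in CAC at an unadjusted p under 0.05 (6.31% and 6.95% of all genes), and the 2 chains of the interferon gamma receptor differed in direction. Ifngr1, the ligand-binding chain for interferon gamma, measured 143, 166 and 185 CPM in CONT and 406, 295 and 308 CPM in CAC. All CAC values were above all CONT values (1.03, SE 0.23, unadjusted p = 0.00341, adjusted p = 0.228). Ifngr2, its signaling chain, measured 34.8, 39.8 and 48.7 CPM in CONT and 24.9, 19.0 and 27.1 CPM in CAC. All CAC values were below all CONT values (-0.80, SE 0.22, unadjusted p = 0.00946).

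The FPKM of Ifngr1 was 5.45, 5.53 and 5.02 times that of Ifngr2 in CONT 1, 2 and 3 and 21.6, 20.5 and 15 times in CAC 1, 2 and 3. Il10rb, the chain shared by interferon lambda and interleukin-10 receptors, measured 60.2, 34 and 41.2 CPM in CONT and 25.0, 21.6 and 19.8 CPM in CAC, without overlap (-1.03, SE 0.26, unadjusted p = 0.00580). The chains of the type I receptor gave -0.20 for Ifnar1 (unadjusted p = 0.451) and -0.15 for Ifnar2 (unadjusted p = 0.418), with overlapping groups in both. Ifngr1, Ifngr2 and Il10rb had an unadjusted p under 0.05 in all edgeR fits with 1 library left out (highest unadjusted p = 0.0387). Ifnlr1, the lambda-specific chain, was at or below 1.84 CPM throughout (-0.16, unadjusted p = 0.846).

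The kinases gave 0.36 for Jak1 (unadjusted p = 0.197), 0.17 for Jak2 (unadjusted p = 0.529) and -0.31 for Tyk2 (unadjusted p = 0.161). The list of 9 negative regulators included Isg15 and Usp18, which are also among the 41 members. Of the 9, Isg15 was lower and Socs3, the feedback inhibitor of JAK kinases, was higher at an unadjusted p under 0.05 (6.95% and 6.31% of all genes). Socs3 measured 14.6, 20.6 and 15.7 CPM in CONT and 20.2, 28.5 and 72.5 CPM in CAC, with most of the excess in CAC 3 (1.25, SE 0.49, unadjusted p = 0.0396). Without CAC 3 the value was 0.53 (unadjusted p = 0.114, edgeR), and the threshold was also missed without each CONT library in turn (unadjusted p from 0.0551 to 0.120).

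Of 15 sensors and adaptors that act ahead of interferon production, 1 was lower at an unadjusted p under 0.05 (6.95% of all genes). This was Ikbke, a kinase that activates interferon regulatory factors, at 9.36, 26.1 and 23.5 CPM in CONT and 11.3, 7.91 and 6.83 CPM in CAC, with CONT 1 below CAC 1 (-1.18, SE 0.43, unadjusted p = 0.0318). It missed that threshold in 4 of the 6 fits with 1 library left out, those without CONT 2, CONT 3, CAC 2 or CAC 3 (unadjusted p from 0.0927 to 0.108). Over these 15 genes the median log2 fold change was -0.14, and over the 10 receptors and kinases it was -0.15.

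**Figure D5:**
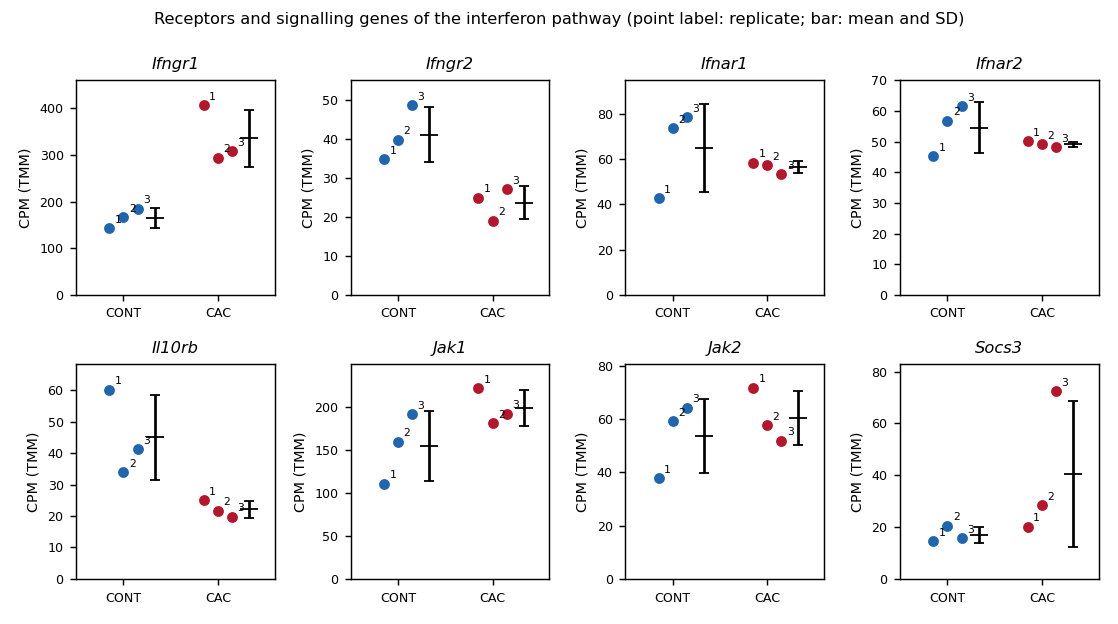
Points are the CPM of 8 receptor and signaling genes in each library, numbered by replicate, with the mean and SD (n = 3) beside each group. All CAC points lie above all CONT points for Ifngr1 and below them for Ifngr2 and Il10rb, and the groups overlap for the other 5 genes.

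A list of 70 further interferon-induced genes that are not among the 41 was read beside them. Of these, 63 had a log2 fold change below 0 (54.1% of all genes), and the median was -0.70. At an unadjusted p under 0.05, 17 were lower and 1 was higher (6.95% and 6.31% of all genes), and 19 did not overlap with CAC lower (10.7%). CONT 2 was the highest library for 46 of the 70 (16.5% of all genes). The smallest p among the lower ones were those of Gbp4, a further guanylate-binding protein (-1.26, unadjusted p = 0.00385), Ly6e, a GPI-anchored membrane protein (-1.004, unadjusted p = 0.00716), and Uba7, the E1 enzyme that activates ISG15 (-0.95, unadjusted p = 0.0131). Ciita, the master regulator of MHC class II (-1.37, unadjusted p = 0.0144), and Ifit3b (-2.02, unadjusted p = 0.0155) followed. With 1 library left out, Gbp4 and Ly6e stayed under 0.05 in all 6 fits, whereas Uba7 missed it without CAC 2 (0.0542), Ciita without CONT 2 (0.0577) or CONT 3 (0.0522), and Ifit3b without CONT 2 (0.0617) or CAC 1 (0.0590).

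Ly6e measured 484, 676 and 412 CPM in CONT and 243, 268 and 273 CPM in CAC, and Gbp4 measured 49.1, 62.2 and 33.9 CPM in CONT and 18.8, 25.3 and 16.3 CPM in CAC, both without overlap. The exception was Ifitm1, a membrane protein that hinders viral entry, at 2.5, 6.39 and 6.64 CPM in CONT and 14.8, 27.4 and 53.9 CPM in CAC (2.62, SE 0.59, unadjusted p = 0.00358). Summed neutrophil markers had the same order within CAC as Ifitm1, at 192.7, 289.7 and 1289 CPM in CAC 1, 2 and 3, and were 15, 70.1 and 105.1 CPM in CONT.

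Immune cell markers were read beside the members, and none passed at an adjusted p under 0.05 with edgeR. In bulk tissue fewer cells of a type and less RNA per cell cannot be told apart. Of 10 B and plasma cell markers, 5 were lower at an unadjusted p under 0.05 (6.95% of all genes). The list's summed level was 435.9, 1456 and 848.7 CPM in CONT and 155.3, 191.1 and 81.2 CPM in CAC. The sum was highest in CONT 2. Taken singly, 5 of the 10 markers were highest in CONT 1, 4 in CONT 2 and 1 in CONT 3 (27%, 16.5% and 12.6% of all genes). Of the 11 dendritic cell markers, 10 were tested, 3 of them were lower at that threshold (6.95% of all genes), and the summed level was 189.1 to 387.8 CPM in CONT and 172.6 to 254.2 CPM in CAC. Most of that sum was Tcf4, a transcription factor, and without it the sums were 70.7, 58 and 58.1 CPM in CONT and 70.7, 40.3 and 38.1 CPM in CAC. The 15 T and NK cell markers summed to 23.5, 43.6 and 89.0 CPM in CONT and to 19.4 to 21.9 CPM in CAC, with 1 lower at that threshold. That marker was Klrb1c, with 1510 reads in CONT 3 and 8 to 54 in the other libraries, and without it the sums were 22.7, 41.3 and 20.7 CPM in CONT and 18.9, 17.8 and 19.8 CPM in CAC.

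Of 14 macrophage markers 1 was lower and 2 were higher at that threshold (6.95% and 6.31% of all genes), and their sum was 909.5 CPM in CONT 1, 2401 and 2419 CPM in CONT 2 and 3, and 1163 to 2023 CPM in CAC. Of 8 neutrophil markers 5 were higher (6.31% of all genes). No marker in these 5 immune lists was at 0 in all libraries. The part of these cell types in the levels of the interferon-stimulated genes was not tested.

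The members were also split by whether their promoter held the ISRE core, as a description with no test. The 18 with it had a median log2 fold change of -0.84, with 12 lower at an unadjusted p under 0.05 (6.95% of all genes), and the 13 without it had a median of -1.01, with 6 lower. The 10 members with no promoter entry had a median of -1.03, with 1 lower. The median CONT 2 to CONT 3 ratio was 1.99 with the core, 1.91 without it and 3.21 for the 10. Bst2, whose groups did not overlap, and Rsad2, whose groups did, both carry the core, and Cmpk2 and Xaf1 had no match within their 300 bases. Absence of a match says only that these letters are not in the window.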

How the data were processed

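The authors prepared poly(A) libraries of eWAT RNA from 3 CONT and 3 CAC mice, aligned the reads to the mouse genome of Ensembl release 94 (GRCm38) with HISAT2 2.0.5 and, per the submitters' processing notes, counted them with featureCounts 1.5.0-p3. The deposited counts are whole reads per gene without normalization. A table of FPKM, also deposited by the authors, scales these reads by gene length and a library total. Whether counting used strand is not given in the sources used here. The columns of gene length and position that were deposited served for length groups and coordinates.

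The counts were tested in R 4.3.3 with edgeR 4.0.16 (TMM, filter on low counts by group, robust quasi-likelihood test, condition only, Benjamini-Hochberg adjustment over all 17296 genes). The scripts were tested on simulated data. DESeq2 1.42.0 (the study also used DESeq2) and limma 3.58.1 (voom with sample weights, and log2 FPKM after a pseudocount of 1 or 0.1, for genes that reached an FPKM of 0.5 in 3 or more libraries) served as alternatives, beside another normalization, other filters, a replicate block and the omission of each library. A fold change on the log2(FPKM + pseudocount) scale understates that of low genes. An exact permutation of 3 against 3 cannot give a two-sided p below 0.1 and was not used for single genes. P-values measure the spread between these mice, and intervals and limits from counts cover counting error only.

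The 41 members and all gene lists were chosen with earlier results of these data known, so counts over a list are descriptions, to be read beside the share over all genes. Values in every library are given for members with an unadjusted p under 0.05, for those whose groups did not overlap and for the member of each role with the highest mean FPKM. Of the pathway lists they are given for genes with an unadjusted p under 0.05, and of the 70 further genes the 6 with the smallest p are named. A further gene that the full rule names is not reported here. Rsad2, Isg20 and the ratios between genes were added after their values had been seen. Sharing of sequence was counted as the share of a gene's 50-base windows found in another gene of the GENCODE transcripts on GRCm38.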

Additional observations from a re-analysis of the deposited data

How the results depend on the processing

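Of the 41 members, 36 kept the sign of their log2 fold change in each of 21 alternative settings. The number of genes with an adjusted p under 0.05 was 0 with edgeR, 929 with DESeq2, 953 with voom and sample weights, and 5 and 6 with limma on the log2 FPKM at a pseudocount of 1 and 0.1, and of these only the DESeq2 genes included members (4). With DESeq2 it was 2949, 441 and 811 without CONT 1, 2 and 3, and 1426, 634 and 498 without CAC 1, 2 and 3. The same replicate numbers did not pair the mice (correlations of same-numbered deviations of 0.27, -0.23 and -0.26). With the replicate block 1 gene passed and 15 members had an unadjusted p under 0.05 (6.29% of all genes lower). The 19 members lower at an unadjusted p under 0.05 became 6 to 27 with 1 library left out in edgeR (3.69% to 8.28% of all genes lower). In DESeq2 they became 8 to 28 (6.59% to 12.2%). With either tool, 1 member was also higher without CONT 1 and 1 without CONT 2 (4% to 14.3% of all genes higher). The 19 became 12 and 12 with the FPKM at a pseudocount of 1 and 0.1 (6.30% and 6.28%), and 9 with the FPKM and no filter (2.97%). With voom and sample weights they became 12 lower and 1 higher, beside 15.9% and 12.4% of all genes, and Gbp3 missed the threshold there (unadjusted p = 0.0579). Of the 70 further genes, 18 had an unadjusted p under 0.05 in either direction. These became 7 to 22 and 10 to 31 with 1 library left out in edgeR and DESeq2, and 10 with the FPKM and no filter. The 17 lower in CAC became 4 to 21 in edgeR (3.69% to 8.28% of all genes lower). In DESeq2 they became 9 to 30 (6.59% to 12.2%), and with the FPKM and no filter 9 (2.97%). The 4 of 70 in edgeR without CONT 2 were close to the share over all genes in that fit (5.3% lower). The 15 members without overlap became 16 to 32 with 1 library left out and the levels rescaled, and 15 to 32 at fixed levels, where the number cannot drop (13.6% to 21.2% of all genes, beside 10.7%). The median of -0.95 ranged from -1.22 to -0.46 in edgeR and from -1.22 to -0.47 in DESeq2 with 1 library left out. The sign of 5 members turned, each with 1 library left out. With 1 library left out in edgeR, the value ranged from -1.33 to 0.053 for Oas2, -0.22 to 1.40 for Oas3, -0.064 to 0.44 for Rsad2, -0.092 to 0.76 for Isg20 and -0.45 to 0.035 for Parp14. In DESeq2, Oas2 gave 0.041 and Parp14 0.025 without CONT 2. In DESeq2, Oas3 gave -0.13, -0.20 and -0.037 without CONT 1, CONT 3 and CAC 3, Rsad2 gave -0.071 and -0.030 without CONT 3 and CAC 2, and Isg20 gave -0.037 and -0.12 without CONT 2 and CONT 3. The cause was not tested. The smallest library, CONT 1, limits the precision of low members such as Mx1, with 12 reads there.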
